A study of Mus musculus with 2 samples.

Results

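The genes for the m6A writer complex and the m6A erasers were followed in a single-cell RNA sequencing data set of the immune cells of B16 tumours. The members were the 10 rows, of 31053 genes in the feature list, whose symbols were Mettl3, Mettl14, Wtap, Virma, Zc3h13, Cbll1, Rbm15, Fto, Alkbh5 and Mettl16, and each symbol had exactly 1 row. B16 is a mouse melanoma line that was injected into C57BL/6 hosts aged 8 weeks, and live CD45+ cells (the surface antigen shared by leukocytes) were sorted from the tumours. Mice labelled WT were Mettl3 fl/fl Lyz2 +/+, and mice labelled KO (METTL3 deficient) were Mettl3 fl/fl Lyz2 cre/+, so both groups carried the floxed alleles and only the KO group carried Cre. The Cre sits in Lyz2, a lysozyme gene of monocytes, macrophages and granulocytes, and it is not restricted to macrophages. The tumour cells were of the injected line and did not carry the floxed alleles of the host. There was 1 library per genotype, made from pooled mice, so the spread between samples is unknown and the genotypes were not tested against each other.

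N6-methyladenosine (m6A) is the most common internal modification of messenger RNA. METTL3 holds the catalytic site of the nuclear writer complex, METTL14 is its structural partner that binds RNA, and WTAP, VIRMA, ZC3H13, CBLL1 and RBM15 place the pair in nuclear speckles and bring it to its target transcripts. FTO and ALKBH5 are the demethylases known as erasers, and METTL16 is a separate methyltransferase that modifies U6 snRNA and the MAT2A transcript. In macrophages the pathway is known for setting the stability and translation of transcripts of the inflammatory response.

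The 3 genes of the methyltransferase family hold a short catalytic motif, which in METTL14 is a degenerate, inactive counterpart. Its codons are shown because their place tells how far the active site lies from the counted end of the transcript. The sequences are from the GENCODE M21 transcripts (GRCm38), 5′ to 3′ on the transcript strand, with the 4 codons of the motif in capitals.
Mettl3: gtgatggctGACCCACCTTGGgatattcac
Mettl14: attctcctgGAGCCCCCTCTGgaagaatac
Mettl16: tgtatgtgcAACCCTCCCTTTtttgccaac
The capitals of Mettl3 lie in exon 6 of 11, at chr14:52297581-52297592 on the minus strand, 690 bases before the end of a transcript of 2025 bases. Those of Mettl14 lie in exon 7 of 11 at chr3:123374805-123374816 on the minus strand, 1875 bases before the transcript end, and those of Mettl16 in exon 5 of 11 at chr11:74792283-74792294 on the plus strand, 1357 bases before it. The 3′ chemistry counts a molecule by a read near its polyadenylated end. A Mettl3 transcript that lacks an internal exon can therefore still add a UMI (unique molecular identifier, 1 count per captured molecule) to Mettl3, and the counts of a gene carry no position within it. Which exons are floxed is not given in the sources used here.

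The libraries held 5895 barcodes labelled WT and 8446 labelled KO, with 45963969 and 54052317 UMIs. After the filters 5405 and 7625 cells were kept, with a median of 4148 and 3567 UMIs per cell. Cells were placed in 10 classes by marker genes that did not include any member, and each class held its own markers at 50 CPM or more (UMIs per 1000000 UMIs of the class; all of the list, except melanoma cells with 6 of 7). The classes ranged from 69 NK cells labelled WT to 2361 monocytes labelled KO, and 837 and 1225 kept cells fell in none of them. The monocyte list summed to 7290 CPM labelled WT and 7954 labelled KO in monocytes. In plasmacytoid dendritic cells (DCs), the next class, the same list summed to 5642 and 6779. The conventional DC list summed to 3529 and 3615 in conventional DCs and to 3499 and 3711 in plasmacytoid DCs. In the library labelled KO conventional DCs thus did not lead in their own list. Levels are given as CPM with exact 95% Poisson intervals that cover counting error only. These values compare 2 libraries and not the genotypes, and because each molecule is counted once they were not divided by gene length. Levels of different genes are still compared only loosely, as the share of molecules captured per gene is unknown.

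All 10 members were detected, and the most and least abundant differed by an order of magnitude. Over the kept cells Alkbh5 had 8981 UMIs, Wtap 5962 and Zc3h13 5209. Mettl3 had the fewest, 888, and Mettl14 1179. The other members lay between, at 2523 for Virma, 2487 for Rbm15, 2296 for Cbll1, 2115 for Fto and 1917 for Mettl16. The catalytic pair was thus counted at a small share of the level of WTAP and ALKBH5 transcripts in these libraries. Summed over the members the level was 345 CPM (interval 337 to 354) in macrophages labelled WT and 367 (359 to 376) in those labelled KO, and 411 and 454 in T cells.

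**Figure D1:**
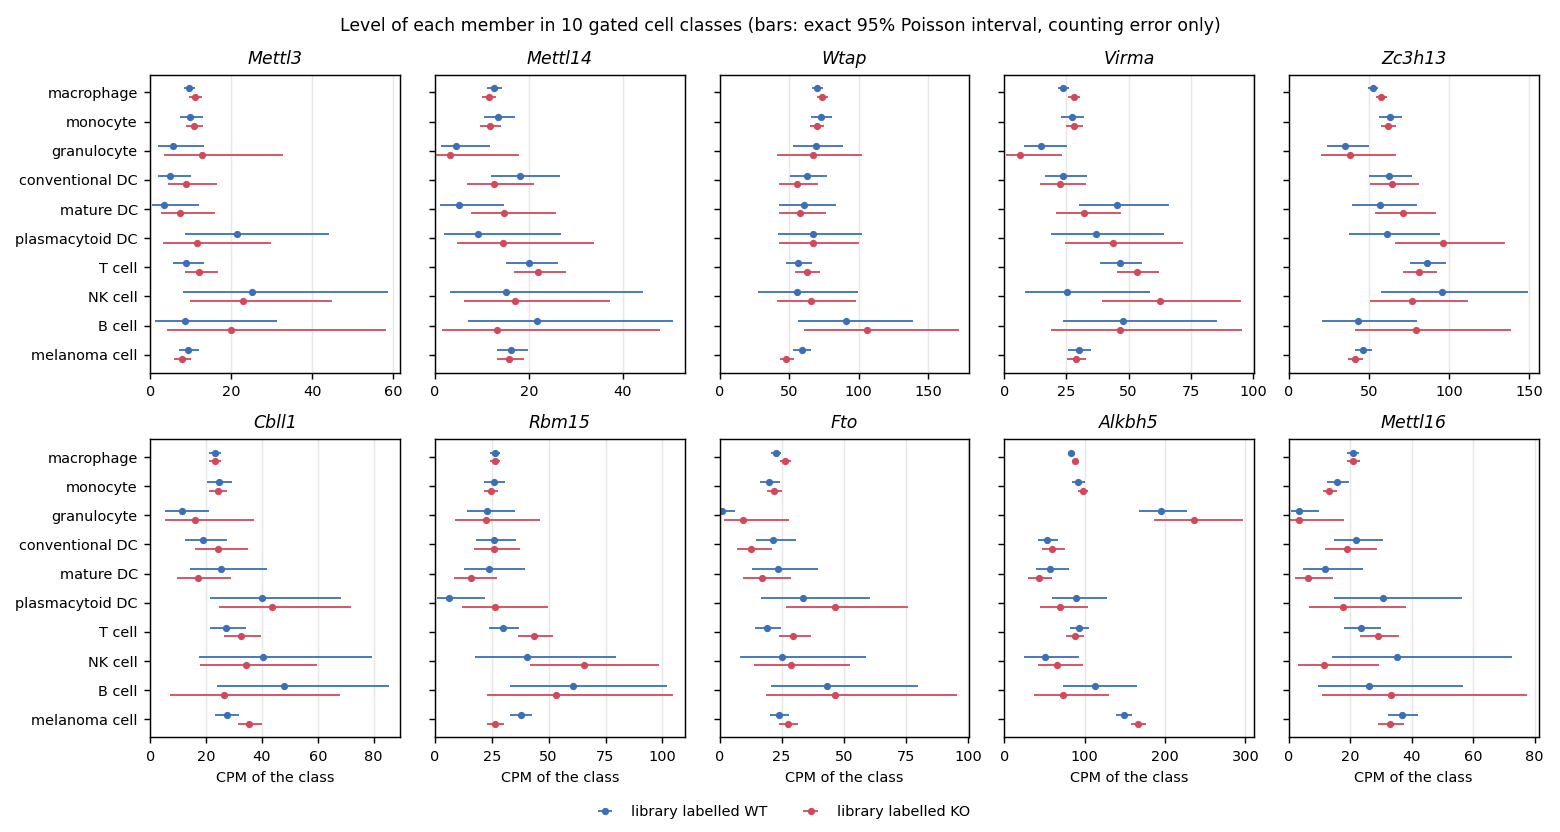
Level of each of the 10 genes (panels) in the 10 gated classes (rows), in CPM, with each x axis at its own scale, for the libraries labelled WT (blue) and KO (red). Points are summed UMIs and bars exact 95% Poisson intervals for counting error. Alkbh5 in granulocytes, at 195 and 237 CPM, lies above all other classes, whereas neighbouring classes overlap in most panels.

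Mettl3, the gene targeted in the KO mice, was not lower in the library labelled KO. Mettl3 lies at chr14:52294841-52305128 (GRCm38, minus strand) and overlaps Tox4 on the opposite strand near its 3′ end. Its level in macrophages was 9.56 CPM (8.26 to 10.995) labelled WT and 11.1 (9.68 to 12.7) labelled KO, from 195 and 218 UMIs. The log2 ratio of KO over WT was 0.22, with a 95% counting interval of -0.07 to 0.50. In monocytes the levels were 9.82 and 10.8 and the log2 ratio 0.14 (-0.36 to 0.65), and in granulocytes only 5 and 4 UMIs were counted. Summed over macrophages, monocytes and granulocytes, the classes known to express Lyz2, the levels were 9.48 and 11.02 CPM from 249 and 329 UMIs, a log2 ratio of 0.22 (-0.02 to 0.46). In macrophages the log2 ratio ran from -0.086 to 0.24 over 8 processing alternatives, the lowest after each cell was thinned to 1000 UMIs. In the cycling macrophages described further on it was 0.53 (0.05 to 1.01), from 71 and 81 UMIs at 8.52 and 12.3 CPM, the one Mettl3 interval among the macrophage values that excluded 0, and it lay on the higher side for the library labelled KO. In noncycling macrophages it was -0.04 (-0.42 to 0.35). As the level of the targeted gene was not lower in the library labelled KO, the groups are referred to below only by the labels of their libraries.

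The cells that do not use Lyz2 gave a reference within each library. In lymphoid cells (T, NK and B cells together) Mettl3 stood at 9.94 CPM labelled WT and 13.6 labelled KO, from 31 and 47 UMIs, a log2 ratio of 0.45 (-0.23 to 1.15). The difference between the log2 ratio of the Lyz2-expressing classes and that of lymphoid cells was -0.23 (-0.98 to 0.50). In melanoma cells the ratio was -0.25 (-0.81 to 0.30), and the difference of the Lyz2-expressing classes from it was 0.47 (-0.14 to 1.08). All of these intervals held 0. After thinning the lymphoid ratio was 1.28 and the Lyz2-expressing minus lymphoid difference -1.15, with 3 and 10 Mettl3 UMIs left in T cells. Among the macrophages with enough UMIs to be thinned, those with a Mettl3 UMI made up 0.999% labelled WT (exact binomial interval 0.583 to 1.59) and 0.941% labelled KO (0.576 to 1.45), against 9.92% and 8.91% before thinning.

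Lyz2 itself, of which an allele is interrupted by Cre in Lyz2 cre/+ mice, was lower in the library labelled KO. In macrophages it stood at 5950 CPM labelled WT and 2691 labelled KO, a log2 ratio of -1.14 (-1.16 to -1.13), and in monocytes at 9494 and 3862. Granulocytes had less, 1150 CPM in 49.4% of cells labelled WT and 601 CPM in 35.0% of cells labelled KO. In T cells, which should lack the gene, Lyz2 was at 547 and 125 CPM and in 40.5% and 17.6% of cells, with median depths of 2476 and 1904 UMIs per cell, and these shares are read as background, not as expression. The near-identical gene Lyz1, chosen for mention after its values were seen, ran the other way, at 19.1 and 199 CPM in macrophages. Reads can be split between Lyz1 and Lyz2, which leaves the value of each uncertain. The sum of both, which a split between them does not change, was 5969 and 2890 CPM in macrophages, a log2 ratio of -1.05 (-1.06 to -1.03), and 9506 and 3964 CPM in monocytes, -1.26 (-1.28 to -1.24).

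**Figure D2:**
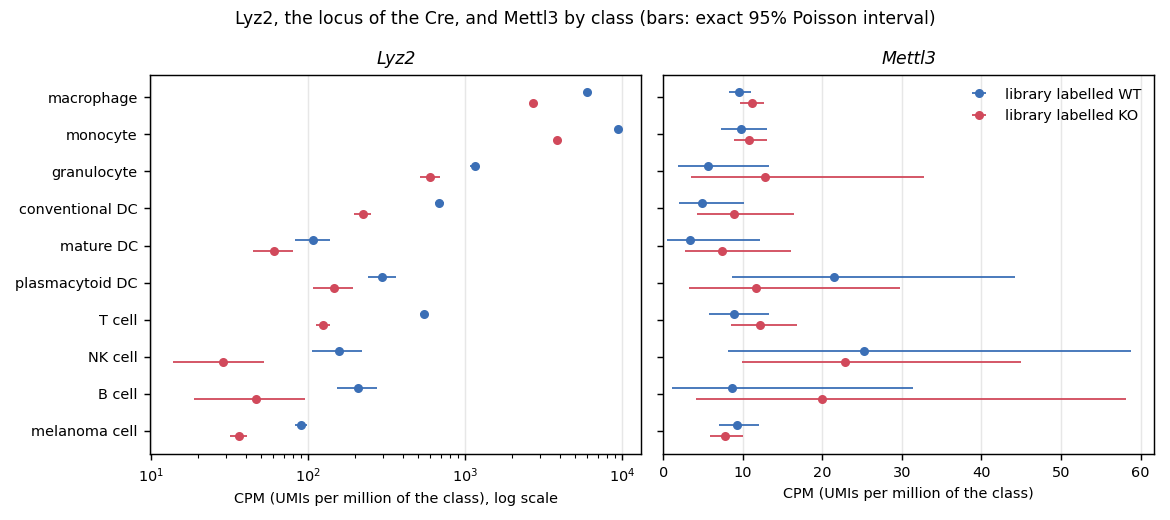
Levels of Lyz2 (left, log scale) and Mettl3 (right, linear scale) in CPM, for the library labelled WT (blue) and KO (red), with exact 95% Poisson intervals. Lyz2 was lower in the library labelled KO in every class, and the Mettl3 intervals of the 2 libraries overlapped in every class.

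Over the 10 classes the levels of Mettl3 ran from 3.37 CPM in mature DCs labelled WT to 25.2 in NK cells labelled WT. NK cells were highest in both libraries (25.2 and 22.8), but from 5 and 8 UMIs, and mature DCs were lowest in both (3.37 and 7.37), from 2 and 6 UMIs. No neighbours in the order of the 10 classes were separated by their intervals, in either library. The genes whose pattern over the 20 class-by-library sums was most like that of Mettl3, among 9868 genes, were Cog1 (r = 0.84), Pibf1 (r = 0.82) and Ugcg (r = 0.81), where r is Pearson's r of log2(CPM + 1). Most of those points hold few Mettl3 UMIs, and points from 1 library share its depth.

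Mettl14 (chr3:123368297-123386108, minus strand), the RNA-binding partner of METTL3, was the member nearest to Mettl3 in total counts. In macrophages it stood at 12.6 CPM labelled WT and 11.5 labelled KO, and the log2 ratio was -0.14 (-0.41 to 0.12). T cells had more, 20.1 and 21.9 CPM. The T cell over macrophage log2 ratio was 0.67 (0.22 to 1.09) for WT and 0.94 (0.52 to 1.34) for KO.

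Among the regulatory subunits Virma and Zc3h13 were also higher in T cells than in macrophages. Virma (chr4:11485958-11550684, plus strand), the largest scaffold of the complex, stood at 46.4 and 53.3 CPM in T cells against 23.8 and 27.9 in macrophages. The log2 ratios were 0.96 (0.67 to 1.25) labelled WT and 0.93 (0.67 to 1.19) labelled KO. Zc3h13 (chr14:75284373-75344426, plus strand), which holds the regulatory part in the nucleus, had 86.2 and 81.4 CPM in T cells against 52.5 and 57.7 in macrophages, with log2 ratios of 0.71 (0.50 to 0.92) and 0.50 (0.29 to 0.70). Wtap (chr17:12966796-12994169, minus strand), the adaptor of the complex, ran the other way at 56.5 and 62.8 CPM in T cells and 70.4 and 73.9 in macrophages, with log2 ratios of -0.32 (-0.57 to -0.08) and -0.23 (-0.46 to -0.01), the first of which turned to 0.32 after thinning.

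Of the 10 members, Mettl14 and Virma, 2 in all, were higher in T cells than in macrophages by 1.5-fold or more in both libraries, and none was lower to that degree. Of all 9978 genes at a mean level of 2 to 200 CPM, 24.1% were higher and 20.8% lower to that degree, so the higher count lay near the background. It ran from 1 to 3 over 8 alternatives. Against monocytes, 1 of the 10 members (Virma) was higher in T cells in both libraries, against 27.2% of 9881 genes. This count against monocytes ran from 1 to 4 over 8 alternatives. With median-of-ratios scaling, which moves the T cell over macrophage log2 ratios by 0.18 and 0.23, Virma alone stayed past the fold, at 0.79 and 0.70, and Mettl14 was at 0.49 and 0.70.

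Cbll1 and Rbm15 are the last regulatory subunits. Cbll1 (chr12:31484829-31499616, minus strand), a RING-type protein also called HAKAI, was at 23.0 and 23.2 CPM in macrophages and 27.1 and 32.4 in T cells. Rbm15 (chr3:107325421-107333673, minus strand), which leads the complex to U-rich stretches, was at 26.5 and 26.3 in macrophages and 29.7 and 43.6 in T cells. Both genes therefore differed little between macrophages of the 2 libraries. Rbm15 in T cells was the larger in the library labelled KO, with a log2 ratio of 0.55 (0.14 to 0.97), and over lymphoid cells it was 0.50 (0.13 to 0.87).

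The erasers differed from each other. Alkbh5 (chr11:60536381-60558512, plus strand) had the most UMIs of the members over the kept cells, and Fto (chr8:91313525-91668439, plus strand) was at 22.6 and 26.4 CPM in macrophages against 83.6 and 88.0 for Alkbh5. Alkbh5 was highest in granulocytes, at 195 CPM (167 to 227) labelled WT and 237 (186 to 297) labelled KO, from 172 and 74 UMIs, 7 of them at most in a single cell. Melanoma cells came next at 149 (139 to 159) and 167 (158 to 176), and all other classes stood below 113. In that order granulocytes and melanoma cells were each set apart, in both libraries, from the class that followed, and the other neighbours overlapped. NK cells, at 50.4 and 65.6 CPM, and conventional and mature DCs, between 43.0 and 60.0, were at the low end.

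The granulocyte over macrophage log2 ratio of Alkbh5 was 1.23 (0.99 to 1.45) labelled WT and 1.43 (1.07 to 1.76) labelled KO. The libraries held 320 and 130 member UMIs in granulocytes in all. Wtap was at 69.3 and 67.2 CPM there, against 70.4 and 73.9 in macrophages, with log2 ratios of -0.02 (-0.42 to 0.35) and -0.14 (-0.83 to 0.48), the second of which was -1.10 after thinning. Fto had 1 and 3 UMIs, Mettl16 3 and 1, Mettl14 4 and 1, and Virma 13 and 2. Of the 10 members, 1 (Alkbh5) was higher in granulocytes by 1.5-fold or more in both libraries against 17.3% of 9281 genes, and 4 (Mettl14, Virma, Fto and Mettl16) were lower against 39.4% of those genes, so both counts lay near the background. The lower calls rest on 1 to 13 UMIs a library, and their number ran from 2 to 6 over 8 alternatives, the lowest with classes from Leiden clusters (cells grouped by their variable genes) and after thinning. Granulocyte cells were also shallow, with medians of 1320 and 1041 UMIs per cell against 9332 and 6866 in macrophages, and the part of this depth in the ratios was not tested beyond thinning. Thinning left out cells with fewer than 1000 UMIs, 128 of 571 granulocytes labelled WT and 113 of 246 labelled KO, and 93 of 1795 and 141 of 2267 macrophages. In the deeper cells that remained, Alkbh5 was found in 16.03% (12.7 to 19.8) and 18.0% (11.9 to 25.6) of granulocytes and in 7.40% (6.20 to 8.75) and 8.98% (7.80 to 10.3) of macrophages. The direction was the same at equal depth among these cells.

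Over the 20 class-by-library sums Alkbh5 was closely followed by Ptp4a1 (r = 0.92) and Ero1l (r = 0.88). Between members, the most alike pair was Fto and Cbll1 (r = 0.80) and the most unlike Alkbh5 and Zc3h13 (r = -0.75), as a description over sums that share libraries and depth. Across the 10 classes, each member's levels in both libraries had r from 0.50 for Rbm15 to 0.89 for Alkbh5.

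Mettl16 (chr11:74770830-74828525, plus strand), the U6 and MAT2A methyltransferase, was at 20.8 and 20.99 CPM in macrophages, a log2 ratio of KO over WT of 0.01 that was -0.81 after thinning. It was lower in monocytes, at 15.6 and 13.2, with monocyte over macrophage log2 ratios of -0.41 (-0.78 to -0.06) and -0.67 (-0.96 to -0.38), the second of which was -0.073 after thinning. No member was lower in monocytes by 1.5-fold in both libraries, against 15.3% of 9492 genes. In melanoma cells it reached 37.0 and 32.9, with log2 ratios over macrophages of 0.83 (0.59 to 1.07) and 0.65 (0.42 to 0.88), the second of which was 1.76 after thinning. Alkbh5 had melanoma over macrophage ratios of 0.83 (0.71 to 0.95) and 0.92 (0.82 to 1.03). These were 2 members past 1.5-fold in both libraries, against 33% of 10345 genes higher and 21.8% lower. With median-of-ratios scaling, which moves these log2 ratios by 0.34 and 0.30, neither passed the fold in both libraries. Melanoma cells were much deeper than any immune class, with medians of 47875 and 34943 UMIs per cell, and they are CD45- cells that the sort should have removed.

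**Figure D3:**
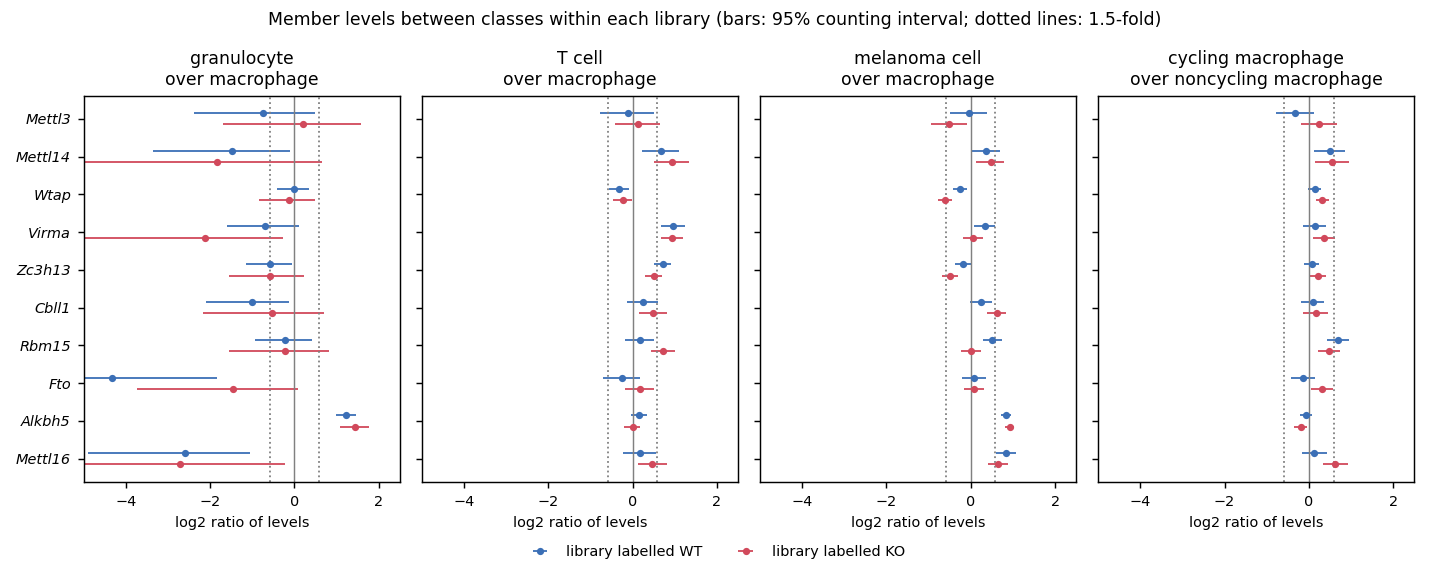
log2 ratio of each gene's level in granulocytes, T cells and melanoma cells over macrophages, and in cycling over noncycling macrophages, within the library labelled WT (blue) and KO (red). Bars are 95% counting intervals, lower ends under -5 are cut at the axis, and dotted lines mark 1.5-fold. Alkbh5 lies to the right of 1.5-fold in granulocytes in both libraries.

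Within macrophages, cells with 3 or more of 8 cell cycle markers were set against those with 1 or none, with 451 and 438 cycling and 1225 and 1704 noncycling cells. The cycling cells were deeper, with medians of 17256 and 14542 UMIs per cell against 7238 and 5655, and the part of depth in these ratios was not tested beyond thinning. Rbm15 was higher in cycling macrophages, at 34.1 against 21.03 CPM labelled WT and 32.5 against 23.3 labelled KO, with log2 ratios of 0.70 (0.44 to 0.96) and 0.48 (0.21 to 0.74), and of 0.52 and 0.94 after thinning. Mettl14 had log2 ratios of 0.49 (0.11 to 0.86) and 0.55 (0.14 to 0.95), which turned negative in both libraries after thinning to 1000 UMIs. Mettl3 did not move in a shared direction, at -0.32 (-0.77 to 0.12) and 0.24 (-0.18 to 0.66). None of the 10 members was past 1.5-fold in both libraries in either direction, against 8.35% of 9543 genes higher and 4.21% lower. In T cells none was higher in cycling cells to that degree, against 11.3% of 9634 genes, and none was lower, against 19.7%.

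Between the libraries, none of the 10 members was past 1.5-fold in macrophages. Of 9745 genes 3.74% were past it. The log2 ratios of Virma (0.23, interval 0.05 to 0.41), Fto (0.22, 0.04 to 0.41) and Zc3h13 (0.14, 0.01 to 0.26) had intervals above 0, and those of the other members held it. As a mean over cells the Zc3h13 ratio was -0.0071. The median log2 ratio of the members was 0.07 beside 0.01 over all genes. In monocytes none of the 10 was past the fold, against 8.83% of 9424 genes, and all 10 intervals held 0. After thinning the counts were 1 in macrophages and 2 in monocytes, against 18.3% and 24.4% of the same genes as before.

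In T cells 1 of the 10 members was past 1.5-fold, against 15.8% of 10078 genes. That was Fto, at 18.9 CPM labelled WT and 29.7 labelled KO, from 51 and 88 UMIs, a log2 ratio of 0.65 (0.14 to 1.18). With classes from Leiden clusters, or with all barcodes, the count was 0. With per-cell means it was 3, against 22.8% of the same genes, and after thinning it was 4, against 34.2%. Rbm15, at 0.55, lay just under it. The median of the members was 0.23 beside 0.02 over all genes. In melanoma cells none of the 10 was past the fold, against 11% of 10131 genes, while Rbm15 (log2 ratio -0.51, -0.79 to -0.23) and Wtap (-0.29, -0.51 to -0.08) were lower and Cbll1 (0.38, 0.09 to 0.67) and Alkbh5 (0.16, 0.04 to 0.29) higher in the library labelled KO with intervals that excluded 0. The count past the fold there was 6 after thinning, against 64.4% of the same genes, and 3 with per-cell means, against 27.7%, so both lay near their background. The Rbm15 ratio turned to 0.052 and 0.23, and the Cbll1 ratio was 1.37 after thinning. In the smaller classes the background was large (34.9% in mature DCs, 52.6% in NK cells and 64.7% in B cells past 1.5-fold), so single ratios there were not read.

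**Figure D4:**
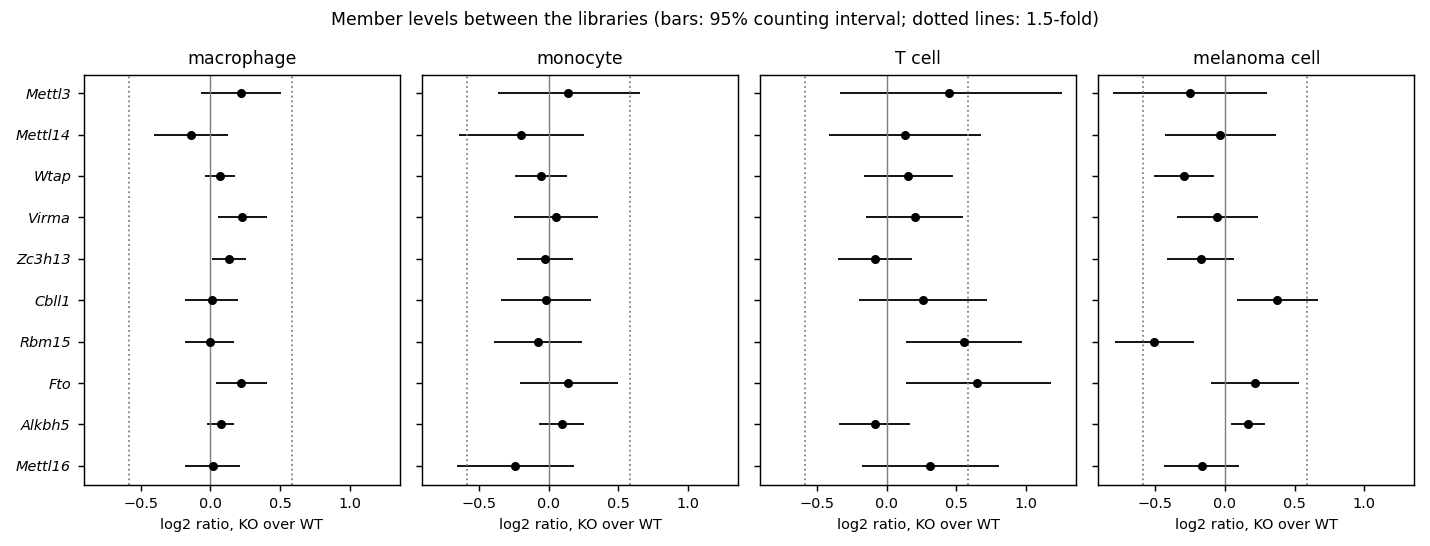
log2 ratio of each gene's level in the library labelled KO over that labelled WT in macrophages, monocytes, T cells and melanoma cells, with 95% counting intervals and dotted lines at 1.5-fold. Mettl3 is at 0.22 in macrophages and only Fto in T cells, at 0.65, lies past the fold.

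The other genes of the pathway were counted as a list of 22 further methyltransferase, reader and methyl donor genes. At a mean of 2 to 200 CPM were 19 of them in macrophages, 18 in monocytes and 18 in T cells. Of these, 1 was past 1.5-fold higher and 0 lower in the library labelled KO in macrophages, 1 and 0 in monocytes, and 0 and 2 in T cells. Over all genes of that range the shares higher and lower were 2.07% and 1.66% in macrophages, 4% and 4.83% in monocytes and 7.08% and 8.67% in T cells. The medians of the list's genes with UMIs were 0.03, -0.04 and 0.06 on the log2 scale. Igf2bp2, a reader that binds methylated transcripts and is known for stabilising them, was the gene past the fold in all 3 classes. It stood at 14.5 and 25.9 CPM in macrophages, a log2 ratio of 0.84 (0.63 to 1.05), and at 6.01 and 22.7 in monocytes, a log2 ratio of 1.92 (1.36 to 2.52). In T cells it was at 10.8 and 4.05, a log2 ratio of -1.41 (-2.52 to -0.40), from 29 and 12 UMIs. Igf2bp3 in T cells (23 and 16 UMIs), a reader of the same family, had an interval that held 0. Outside that range of levels, Igf2bp1 in macrophages (2 and 1 UMIs) was past the fold lower, and Mettl4 in monocytes, a further methyltransferase that was named after its values were seen, was past it higher (7 and 25 UMIs, log2 ratio 0.85, -0.40 to 2.30), and both intervals held 0.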

How the data were processed

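The authors deposited a matrix of raw UMI counts of both libraries, made with Cell Ranger 4.0.0 (per the file headers) from 10x Chromium 3′ v3 libraries aligned to mm10, with a table that gave the library of each barcode. The members and gene lists were chosen with earlier results of these data known. Barcodes with at least 200 genes and at most 10% mitochondrial UMIs were kept (5661 and 8157). Scrublet in scanpy 1.11.5 marked 1 and 1 cells with its automatic threshold, which had not worked, so the highest-scoring 0.8% per 1000 cells (256 and 532) were removed. A total of 13 barcode sequences occurred in both libraries. A cell entered a class with at least 3 of the class's fixed markers and a marker score 1.5 times that of the next unrelated lineage. These thresholds were set after marker scores were seen. UMIs were summed per class and library. Ratios had exact conditional binomial intervals, levels exact Poisson and shares exact Clopper-Pearson intervals, all at 95%. A gene was called past 1.5-fold, with a count of 0 set at 3 UMIs, and the background was all genes at a mean of 2 to 200 CPM (UMIs per 1000000), leaving out haemoglobin, ribosomal protein and mitochondrial genes. The genes named are the 10 members, Lyz2, pathway genes past the fold in macrophages or T cells, and the 3 genes most like Mettl3 and the most counted member, of which 1 is not reported here. Outside this rule, Lyz1 and Mettl4 were named after their values were seen, and Tox4 for its overlap with Mettl3. Calculations were tested on simulated data (numpy 2.4.6, scipy 1.17.1). Alternatives were Leiden clusters (leidenalg 0.10.2), a stricter gate, thinning, per-cell means, kept doublets, all barcodes, and other scalings and folds.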

Additional observations from a re-analysis of the deposited data

Results flagged for a closer look

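The KO over WT log2 ratio of Rbm15 differed between the Lyz2-expressing classes and lymphoid cells. It was -0.03 (-0.18 to 0.12) in macrophages, monocytes and granulocytes together, from 689 and 767 UMIs, and 0.50 (0.13 to 0.87) in lymphoid cells, from 102 and 160 UMIs. The difference of the first from the second was -0.53, with an exact conditional 95% interval of -0.93 to -0.13. Differences were calculated for 10 members over 4 pairs of classes, 40 in all, of which 7 had intervals that excluded 0. The pairs share cells, the intervals cover counting error in 1 library per genotype, and no adjustment was made over the 40. The difference was -0.28 with classes from Leiden clusters and -0.85 after thinning, the lowest and highest size over 8 alternatives. The Rbm15 difference was also -0.56 (-1.02 to -0.10) for macrophages minus T cells and -0.63 (-1.16 to -0.10) for monocytes minus T cells, which are parts of the same classes.

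Against melanoma cells, which carry neither Cre nor the floxed alleles, the Rbm15 difference had the opposite sign. The Rbm15 ratio there was -0.51 (-0.79 to -0.23), and the Lyz2-expressing minus melanoma difference was 0.48 (0.16 to 0.80). That pair also differed for Wtap, by 0.33 (0.09 to 0.56), for Zc3h13, by 0.30 (0.04 to 0.56), and for Cbll1, by -0.34 (-0.68 to -0.01). The Rbm15 ratio in melanoma cells was 0.052 after thinning and 0.23 with per-cell means.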

How the results depend on the processing

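With 1 library per genotype no spread between samples exists, so the intervals limit precision by counting alone and no library could be left out. No paired analysis was possible because each genotype had 1 library. Of 213 comparisons of the leading values with an alternative 186 stayed within their interval or within 1.5 times of a count, 27 did not, and among these the Mettl3 ratio in macrophages, whose interval held 0, changed sign. Among 2095 comparisons of single genes 1907 stayed, 171 moved and 17, whose intervals excluded 0, turned direction. The causes were not tested, except that thinning leaves few UMIs (17 and 20 of Mettl3 in macrophages, 3 and 10 in T cells).

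Thinned to 1000 UMIs a cell, the Mettl3 ratio of KO over WT was -0.086 in macrophages, 1.63 in T cells and 1.28 in lymphoid cells, and the Lyz2-expressing minus lymphoid difference was -1.15. Members past 1.5-fold between libraries were then 1 in macrophages, 2 in monocytes, 4 in T cells and 6 in melanoma cells, against 18.3%, 24.4%, 34.2% and 64.4% of all genes treated alike. Members lower in granulocytes than macrophages were 2 (27.1% of genes), and the cycling comparisons gave 1 lower in T cells (8.31%) and 1 higher in macrophages (11.8%). Turned directions under thinning were Rbm15 in melanoma cells (KO over WT 0.052), Wtap in T cells over macrophages (0.32) and over monocytes (0.22) and in melanoma cells over macrophages (0.30), all labelled WT, Zc3h13 in monocytes over macrophages (-0.16, WT), Mettl3 (0.70) and Mettl14 (-0.61) in melanoma cells over macrophages (KO), and Mettl14 (-0.41 WT, -0.32 KO) and Fto (-0.085, KO) in cycling over noncycling macrophages.

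With per-cell means, members past the fold between libraries were 3 in T cells and 3 in melanoma cells (22.8% and 27.7% of genes), members lower in monocytes than macrophages 1 (16.1%), higher in T cells than monocytes 3 (29.3%), and higher or lower in melanoma cells than macrophages 1 and 1 (30.3% and 22.0%). Zc3h13 in macrophages (-0.0071), Rbm15 in melanoma cells (0.23), Wtap in melanoma cells over macrophages (0.24, WT) and Mettl14 in cycling macrophages (-0.21, WT) turned direction.

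The T cell count between libraries was 0 with Leiden clusters, with all barcodes and at 2-fold. Leiden clusters gave 3 members higher in T cells than monocytes (27.5% of genes) and 2 lower in granulocytes than macrophages (28.1%), and turned Alkbh5 in monocytes over macrophages (-0.17, KO) and Cbll1 in granulocytes over macrophages (0.093, WT). T cells over monocytes gave 2 with the stricter gate (27.0%) and 4 with the total without mitochondrial, ribosomal and haemoglobin genes (35.4%), beside 1 as calculated (27.2%). Median-of-ratios scaling left 1 member higher in T cells over macrophages (17.9%), 0 higher and 1 lower in melanoma cells over macrophages (24.2% and 27.9%), and turned Virma there (-0.0099, WT); it moved granulocyte log2 ratios over macrophages by 0.16 and 0.54. The Alkbh5 granulocyte over macrophage ratio ranged from 0.96 to 1.37 labelled WT and from 0.89 to 1.39 labelled KO over 8 alternatives, and Virma in T cells over macrophages from 0.79 to 1.32 and 0.62 to 1.16.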
